A study of Mus musculus with 2 samples.

Results

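The genes described here are 36 genes of the response to low oxygen and of glycolysis, chosen by name out of the 28380 genes counted in at least 1 of 2 single-cell libraries from mouse bone. They comprise 7 regulators of the hypoxia-inducible factors (HIFs), 19 genes of glucose uptake, glycolysis and lactate handling, and 10 further genes known as HIF targets. In GENCODE vM21 on GRCm38, Hif1a lies at chr12:73901375-73947530 (+), Epas1 at chr17:86753700-86833410 (+), Egln3 at chr12:54178981-54203860 (-), Ddit4 at chr10:59949669-59951834 (-) and Pdk1 at chr2:71873224-71903858 (+), all as protein-coding genes whose whole length was counted. All 36 were found in both tables of counts, and they are described over the cell classes and subtypes of the bone and between the libraries.

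Single-cell RNA sequencing was run on the BD Rhapsody system with non-haematopoietic cells of femur and tibia of C57BL/6 mice at postnatal day 30, after the epiphysis had been taken off and blood lineage, CD45+ and CD117+ cells had been depleted. The Control library came from mice of the genotype Dach1OE +/f, which carry the Dach1 transgene without a Cre allele. The Dach1OE library came from mice of the genotype Apj CreERT2 - Dach1OE +/f, in which CreERT2, active once tamoxifen is given, is driven by Apj (Aplnr), a receptor gene of capillary endothelial cells (ECs), and switches the transgene on. Both groups received tamoxifen, shortly after birth per the methods, both hold male and female cells per the labels, and each library pooled 2 mice per the methods, in a cross that also carried the R26-mT/mG reporter. With 1 library per group there is no replicate, so no test was run and no p-value is given. Every interval is an exact 95% interval that covers counting error only, and a difference between the libraries cannot be told apart from a difference between the pooled mice or the preparations.

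HIF1α (Hif1a) and HIF2α (Epas1) are the oxygen-regulated subunits of the HIF complex. In the presence of oxygen, prolyl hydroxylases (Egln1, Egln2, Egln3) mark them for the ubiquitin ligase subunit VHL (Vhl), which leads to their breakdown, whereas in low oxygen they build up, bind DNA and recruit co-activators such as p300 (Ep300). This control acts mainly on the proteins, which were not measured here. HIF target genes include the glucose transporter GLUT1 (Slc2a1), most glycolytic enzymes, the lactate exporter MCT4 (Slc16a3), and Egln3 itself. The avascular growth plate cartilage is a tissue known for low oxygen and for its need of HIF1α.

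The libraries held 28720 Control and 32028 Dach1OE cells with 143986818 and 166999989 unique molecular identifiers (UMIs), and 26466 and 29317 cells passed the filters. Levels are given as CPM, the UMIs of a gene per 1000000 UMIs of the cell class in that library. Classes were gated per cell from marker genes, so that a name means a cell like that type, and they comprised 9875 and 10362 ECs, 5942 and 4825 bone stromal cells, 4153 and 5652 chondrocytes, and 1225 and 2487 mural cells in Control and Dach1OE. Scrublet marked 6.42% and 6.67% of the kept cells as doublets, which stayed in. The tables shared 1049 cell barcodes, of which 879 passed the filters in both libraries. Dach1, the targeted gene, stood at 5.27 CPM in Control ECs (180 UMIs) and at 189.9 CPM in Dach1OE ECs (6720 UMIs), while chondrocytes had 2.77 and 5.42 CPM and mural cells 4.92 and 12.5 CPM.

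The HIF complex binds a short DNA core, and the 2 forms of it searched here were ACGTG and GCGTG, on both strands, in promoters that reach from 250 bases before to 50 bases after the start of a gene (RefSeq, GRCm38.p6). Of the 36 genes 32 were found in this table, with no entry for Epas1, Bnip3l, Ndrg1 and Ndufa4l2. At least 1 form was present in 28 of the 32 genes (87.5%), as against 46.7% of all 27025 genes in the table, and ACGTG in 23 (71.9%) as against 21.8%. The members' promoters had a median GC content of 65%, as against 52.7% for all promoters, and the part of base composition in these shares was not tested. All 7 of the HIF target genes with an entry held a match, while Ep300, Vhl, Gpi1 and Tpi1 held none.

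The windows of 5 genes that stood highest in chondrocytes below are shown first, on the strand of the gene, with every match in capitals. A match on the other strand reads CACGT or CACGC, and CACGTG is a match on both strands. The Slc2a1 window is at chr4:119108669-119108728 (+), the Ldha window at chr7:46845644-46845789 (+), the Pgk1 window at chrX:106186935-106186988 (+), the Slc16a3 window at chr11:120949025-120949066 (+) and the Bnip3 window at chr7:138909522-138909638 (-). In all of them the letters lie upstream of the start of the RefSeq promoter used, and Slc16a3 has its pair of ACGTG matches within the last 42 bases. By the GENCODE positions, the Ldha and Slc16a3 windows lie within the gene, and the Slc2a1 window runs past its start.
Slc2a1: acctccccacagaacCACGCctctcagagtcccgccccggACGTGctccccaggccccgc
Ldha: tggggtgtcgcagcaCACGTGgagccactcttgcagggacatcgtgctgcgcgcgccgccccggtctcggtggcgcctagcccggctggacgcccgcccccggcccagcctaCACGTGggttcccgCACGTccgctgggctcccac
Pgk1: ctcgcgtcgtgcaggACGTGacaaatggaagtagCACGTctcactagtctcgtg
Slc16a3: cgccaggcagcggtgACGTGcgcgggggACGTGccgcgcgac
Bnip3: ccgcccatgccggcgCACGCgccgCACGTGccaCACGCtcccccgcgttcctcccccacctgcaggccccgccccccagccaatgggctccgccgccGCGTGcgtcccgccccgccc

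The windows of 3 genes that stood higher in Dach1OE than in Control ECs below follow in the same way. The Egln3 window is at chr12:54204084-54204118 (-), the Ankrd37 window at chr8:45999851-46000100 (-) and the Ddit4 window at chr10:59951866-59951972 (-). The Egln3 promoter held 1 match, 210 or more bases before the RefSeq start. The matches of Ankrd37 reach up to the RefSeq start used, which lies within the gene by the GENCODE positions. CACGCGTG in the Ankrd37 window is a pair of overlapping GCGTG matches. A match is a description of the letters and not a measured binding site.
Egln3: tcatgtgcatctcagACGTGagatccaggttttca
Ankrd37: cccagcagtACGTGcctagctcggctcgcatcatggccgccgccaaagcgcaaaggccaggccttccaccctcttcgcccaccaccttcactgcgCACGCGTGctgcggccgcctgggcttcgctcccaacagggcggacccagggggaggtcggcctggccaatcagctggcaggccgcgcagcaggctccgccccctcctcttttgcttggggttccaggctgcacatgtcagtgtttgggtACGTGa
Ddit4: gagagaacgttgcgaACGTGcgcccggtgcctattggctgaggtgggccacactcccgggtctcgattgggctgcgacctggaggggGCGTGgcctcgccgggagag

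Across the cell classes, the 36 genes stood out in chondrocytes. Chondrocytes held a median of 10804 and 10222 UMIs per cell and ECs 2794 and 2793, and levels are relative to each class's total. The UMIs of the members added up to 0.813% of all chondrocyte UMIs in Control and 0.865% in Dach1OE, as against 0.373% and 0.415% in ECs, 0.450% and 0.462% in mural cells and 0.220% and 0.215% in bone stromal cells. In Control 19 of the 36 genes were at least 2-fold higher in chondrocytes than in all other kept cells and 5 at least 2-fold lower, where 8.65% of all genes tested were at least 2-fold higher and 34% at least 2-fold lower. In Dach1OE the counts were 18 and 6, with 8.53% and 33.5% of all genes. The median of the members was 1.06 and 1.04 on the log2 scale, and that of all genes -0.56 and -0.55.

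The enzymes and transporters of glycolysis carried most of this, with 14 of 19 at least 2-fold higher in Control chondrocytes and 13 in Dach1OE. Among the other targets Bnip3, a receptor for the removal of mitochondria, stood at 396.5 CPM in Control and 374 CPM in Dach1OE chondrocytes, 15.5-fold and 11.8-fold above the other cells. In glycolysis itself Slc16a3, which exports lactate, stood at 74.7 and 98.4 CPM, 14.4-fold and 12.8-fold above. Slc2a1, the glucose transporter, stood at 87.5 and 93.7 CPM, 5.47-fold and 3.67-fold above. All 3 had their highest level among the classes in chondrocytes in either library.

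The later steps of the pathway were higher as well. Pgk1, phosphoglycerate kinase, was at 883 and 980.2 CPM in chondrocytes, 6.02-fold and 5.87-fold above the other cells. Eno1, enolase, was at 309 and 374 CPM, 6.32-fold and 5.97-fold above. Pgam1, phosphoglycerate mutase, was 5.97-fold and 5.71-fold above, Ldha, which turns pyruvate into lactate, 4.13-fold and 3.75-fold, and Tpi1, triosephosphate isomerase, 4.20-fold and 3.90-fold. Smaller folds were found for Hk2, hexokinase, at 3.80-fold and 3.44-fold, and for Pkm, pyruvate kinase, at 2.98-fold and 3.22-fold. Pdk1, which inhibits pyruvate dehydrogenase, was 2.46-fold and 2.73-fold above. Pfkl was 2.27-fold and 2.19-fold above, and Pfkfb3, which makes the activator of phosphofructokinase, 2.65-fold and 2.67-fold. Several of these genes (Gapdh, Eno1, Ldha, Pgk1, Tpi1, Pgam1, Aldoa and Pkm) have processed pseudogenes or close relatives that can take or lend reads, and in GENCODE vM21 a pair of gene models carries the name Aldoa, so their levels are less certain.

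Aldoc, an aldolase best known from the brain, had the largest fold over the other cells among the members. It stood at 34.2 CPM in Control and 32.2 CPM in Dach1OE chondrocytes, 43.9-fold and 30.2-fold above the other cells, and at 0.498 and 0.452 CPM in ECs (17 and 16 UMIs). Chondrocyte transcripts found in ECs, measured from marker genes as described for ECs below, would come to 0.394 and 0.624 CPM of Aldoc. That is below the Aldoc level in Control ECs and above it in Dach1OE ECs, and the part of these transcripts was not tested. Its share of the UMIs of Aldoa and Aldoc together was 4.11% and 3.90% in chondrocytes and 0.139% and 0.109% in ECs. In the same way, Hk2 held 45.9% and 46.8% of the Hk1 and Hk2 UMIs in chondrocytes but 3.96% and 5.25% in ECs, and Bnip3 74.6% and 74.6% of the Bnip3 and Bnip3l UMIs in chondrocytes but 7.62% and 10.4% in ECs. These shares are compared between cell types and not as the true ratio of the transcripts, since priming at the 3' end differs from gene to gene.

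Of the other targets, P4ha1, which hydroxylates procollagen, stood at 481 and 477 CPM in chondrocytes, Higd1a, a mitochondrial protein, at 397.5 and 433 CPM, and Ndufa4l2, a mitochondrial protein that lowers oxygen use, at 276 and 402 CPM. All 3 were at least 5.10-fold above the other cells in both libraries. Ndufa4l2 was nevertheless highest in mural cells, at 654 and 754 CPM, and within them in pericytes, at 855 and 970.0 CPM. Ddit4, an inhibitor of mTOR signalling, was 2.14-fold above the other cells in Control chondrocytes (227 CPM) and 0.957-fold in Dach1OE (179.6 CPM), as the level in the other cells was higher in Dach1OE.

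**Figure D1:**
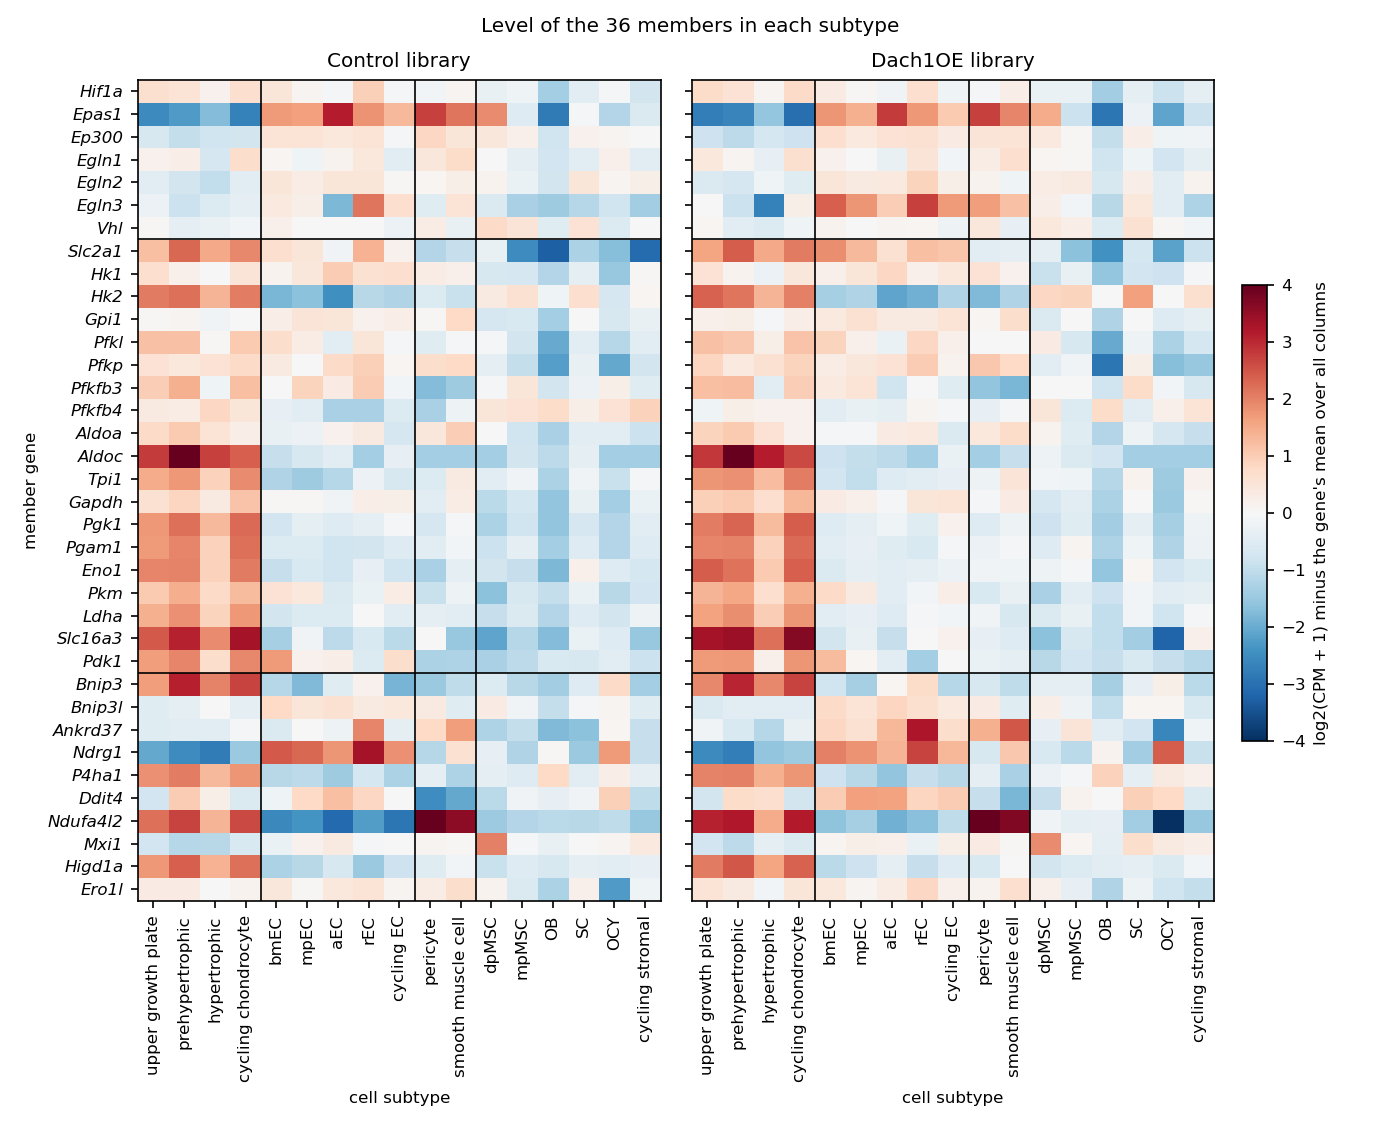
Each row is 1 of the 36 genes and each column a cell subtype, with the Control library on the left and the Dach1OE library on the right. The colour is log2(CPM + 1) minus the gene's mean over all columns and is cut at 4 either way. Lines part the regulators, the glycolysis genes and the other targets, and the chondrocyte, EC, mural and stromal columns. Most glycolysis rows and those of Bnip3, P4ha1 and Higd1a are red in the chondrocyte columns, while Epas1 is red in the EC, mural and dpMSC columns.

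The other classes led for fewer genes. Among 9 classes, chondrocytes had the highest level for 17 genes in Control and 15 in Dach1OE, cells of the megakaryocyte lineage for 7 and 9, mural cells for 4 and 5, and basophils or mast cells for 4 and 4. Of all genes, chondrocytes had the highest level for 8.7% and 8.46%, the megakaryocyte lineage for 9.24% and 8.97%, mural cells for 9.86% and 10.9% and basophils or mast cells for 11.8% and 12.2%, so that the counts of the last 2 classes were near the share of all genes. The megakaryocyte lineage led for Hk1 (182 and 191 CPM), Mxi1 (225 and 253 CPM), Pfkfb4 (9.29 and 11.1 CPM), Aldoa (1106 and 1156 CPM) and Bnip3l (355 and 367 CPM). Basophils or mast cells led for Hk2 (152 and 170 CPM), Pfkp (74.0 and 83.6 CPM) and Ero1l, a folding oxidase named Ero1a in newer annotation (208 and 212 CPM). The 289 and 303 cells gated as myeloid or lymphoid, which formed no cluster of their own, had the highest Gpi1 (364 and 404 CPM). In bone stromal cells 25 of the 36 genes were at least 2-fold lower than in the other cells in either library, where 23.3% of all genes were in Control and 28.6% in Dach1OE.

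Hif1a and Epas1 were distributed differently over the bone. Hif1a was highest in chondrocytes, at 147 CPM in Control and 153 CPM in Dach1OE, and Epas1 was among the lowest members by fold there, at 28.4 and 22.2 CPM, 0.103-fold and 0.0864-fold the level of the other cells. Epas1 was highest in mural cells (754 and 734 CPM) and next in ECs (493 and 512 CPM). Of the Hif1a and Epas1 UMIs together, Hif1a held 83.8% (83.0 to 84.6) and 87.3% (86.7 to 87.97) in chondrocytes, 20.6% and 17.5% in ECs, and 11.5% and 12.8% in mural cells. The intervals of these 3 classes did not overlap one another in either library.

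Within the classes the subtypes differed further. Epas1 was at 1315 and 1028 CPM in arterial ECs (aECs), as against 479 and 506 CPM in the sinusoidal ECs of the marrow (bmECs), 464 and 393 CPM in metaphyseal ECs (mpECs) and 519 and 493 CPM in remodelling ECs (rECs). Pericytes had 992 and 979.9 CPM and smooth muscle cells 648 and 579 CPM. In the stromal lineage, Epas1 was at 545 and 412 CPM in diaphyseal mesenchymal stromal cells (dpMSCs), at 104 and 81.5 CPM in metaphyseal ones (mpMSCs) and at 19.9 and 19.0 CPM in osteoblasts (OBs). The share of Hif1a was 12.7% and 16.7% in dpMSCs and 65.5% and 66.0% in OBs, although Hif1a itself was at 79.2 and 82.5 CPM in dpMSCs and 37.7 and 36.9 CPM in OBs. Most genes were lower in OBs than in dpMSCs, with a median of all genes of -0.90 and -0.87 on the log2 scale.

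**Figure D2:**
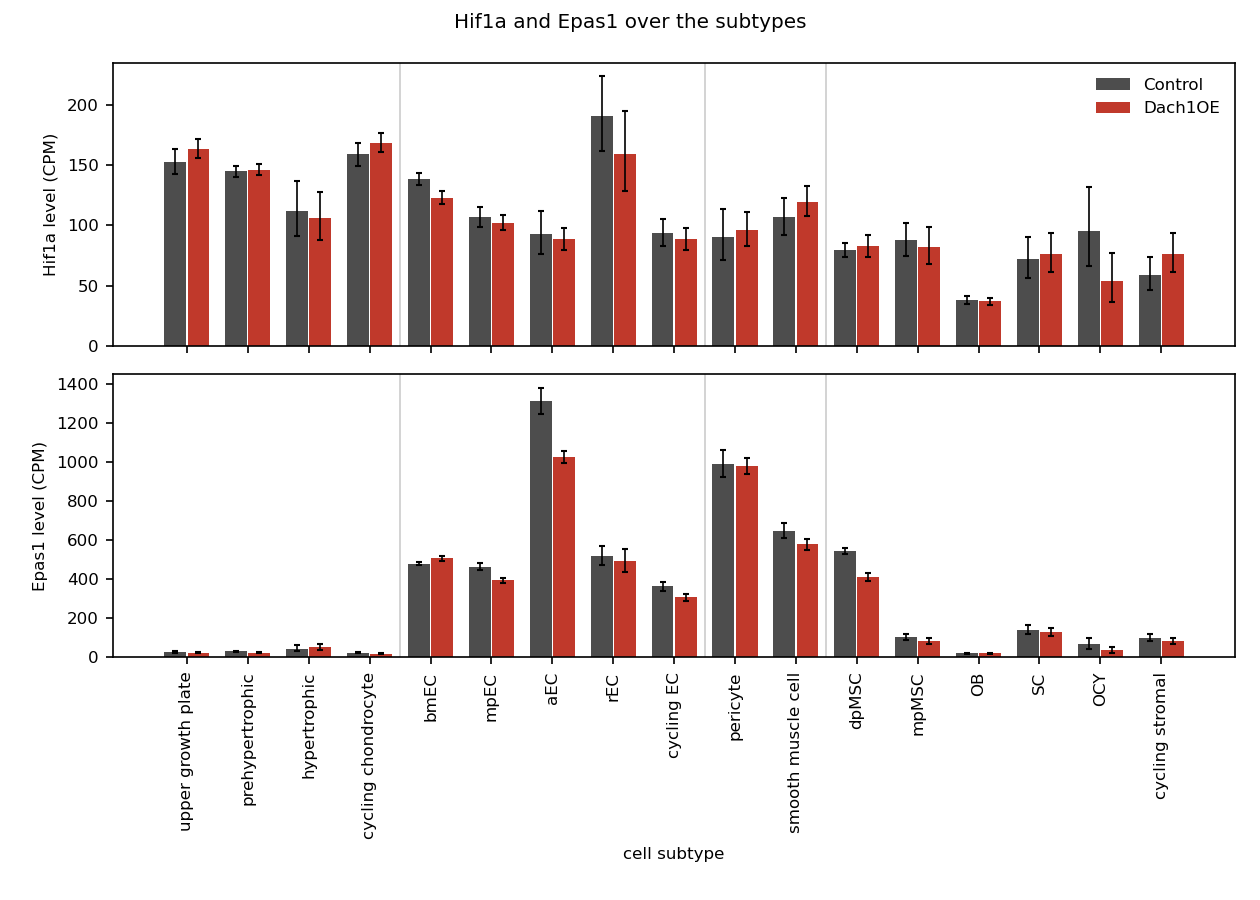
Bars give the level in CPM of Hif1a (top) and Epas1 (bottom) in each cell subtype of the Control (grey) and Dach1OE (red) libraries, with exact 95% Poisson intervals. The subtypes stand in the order of chondrocytes, ECs, mural cells and stromal cells, parted by lines. Epas1 is highest in aECs (1315 and 1028 CPM) and low in all chondrocyte zones and in OBs, where Hif1a is the more frequent of the pair.

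In the growth plate, the genes differed between zones. Prehypertrophic chondrocytes (2094 and 2492 cells) stood above the upper growth plate chondrocytes (763 and 1265 cells) by at least 1.5-fold for 6 of 34 members in Control and 4 of 35 in Dach1OE, where 6.98% and 6.86% of all genes did. Ddit4 went from 89.5 to 312 CPM between these zones in Control and from 91.6 to 251 CPM in Dach1OE, which is 1.80 (1.68 to 1.93) and 1.46 (1.36 to 1.56) on the log2 scale. Aldoc (1.46 and 1.37), Bnip3 (1.44 and 1.13) and Slc2a1 (1.13 and 0.87) followed. Slc16a3 and Higd1a passed 1.5-fold in Control (0.64 and 0.65) but not in Dach1OE (0.09 and 0.41), where the upper zone had more of Slc16a3 than in Control. Hif1a had -0.08 (-0.18 to 0.03) and -0.16 (-0.24 to -0.08).

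Hypertrophic chondrocytes were few, with 112 and 139 cells, and most members were lower in them. They held a median of 7977 and 8023 UMIs per cell, and prehypertrophic chondrocytes 12591.5 and 11825. Scrublet marked 12.5% and 7.19% of hypertrophic and 6.73% and 7.38% of prehypertrophic chondrocytes as doublets. The hypertrophic markers Ibsp, Alpl and Mmp13 also served to gate bone stromal cells or their subtypes. The part of these points in the results was not tested. Of 33 members with enough UMIs, 19 in Control and 16 in Dach1OE were at least 1.5-fold lower than in prehypertrophic chondrocytes, where 22.8% and 23.6% of all genes were. Pfkfb3 had log2 ratios of -1.64 (-2.52 to -0.89) in Control and -1.73 (-2.57 to -1.002) in Dach1OE. Ndufa4l2 had -1.35 and -1.70 on this scale, Pdk1 -1.29 and -1.58, Slc16a3 -1.21 and -1.22 and Bnip3 -1.15 and -1.13. The glycolysis genes had a median of -0.89 and -0.89, where that of all genes was -0.14 and -0.17. Of the 18 glycolysis genes with enough UMIs, 17 were below 0 in either library. At least 1.5-fold higher were 0 of the 33 in Control and 3 in Dach1OE, where 13% and 12.1% of all genes were. These 3 were Epas1, at 0.55 (0.04 to 1.02) in Control and 1.15 (0.73 to 1.54) in Dach1OE, and in Dach1OE Ndrg1, at 1.27 (0.51 to 1.95), and Mxi1, at 0.70 (0.16 to 1.19).

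**Figure D3:**
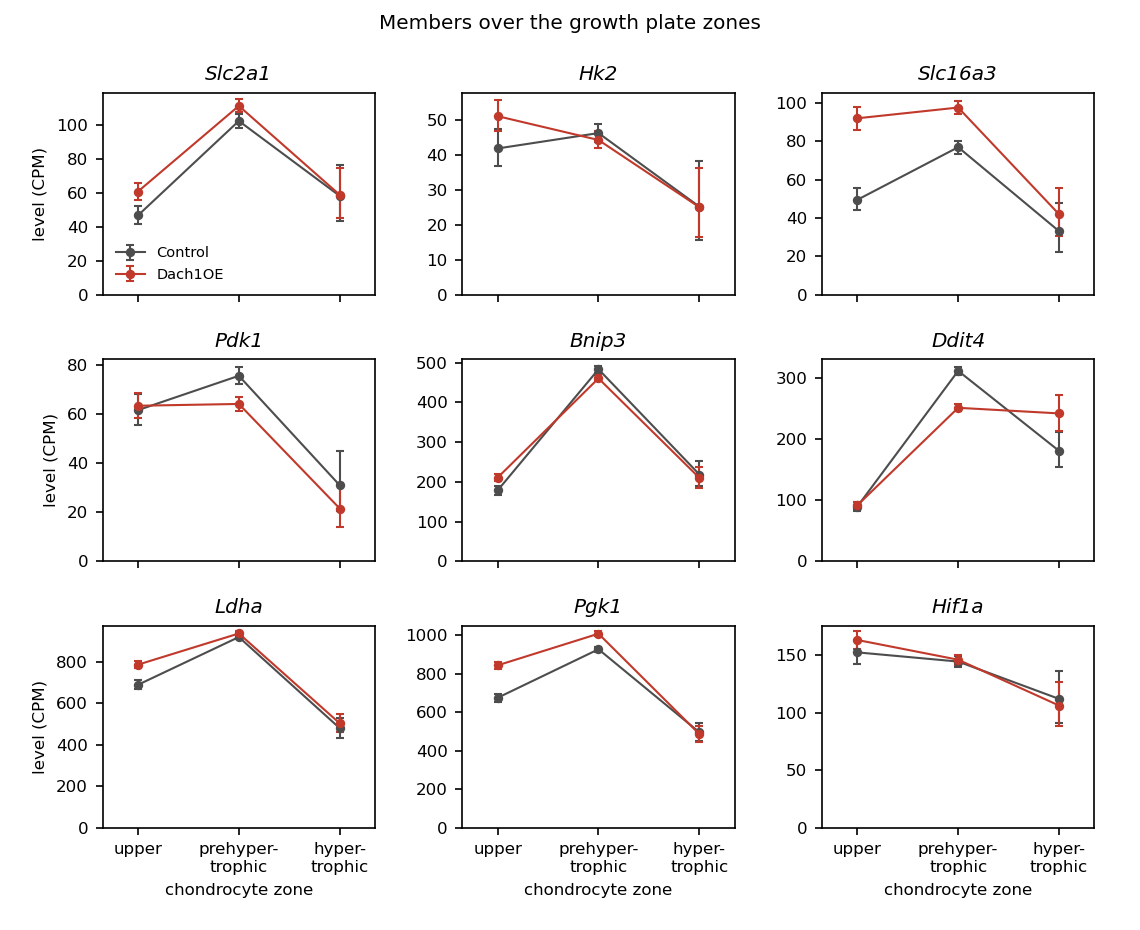
Levels in CPM of 9 of the genes in upper growth plate, prehypertrophic and hypertrophic chondrocytes of the Control (grey) and Dach1OE (red) libraries, with exact 95% Poisson intervals. Bnip3, Ddit4 and Slc2a1 peak in prehypertrophic cells in both libraries, while Hif1a lies between 106 and 163 CPM in all 3 zones.

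The first comparison between the libraries asks how the genes stood in ECs, the cells that carry the active transgene. Of the members, 6 of the 34 with at least 100 UMIs were at least 1.5-fold higher in Dach1OE ECs and 1 was at least 1.5-fold lower, where 7.29% of all genes were higher and 5.35% lower. The median of the 34 was 0.17 on the log2 scale and that of all 12889 genes tested 0.04. Aldoc and Pfkfb4 had too few UMIs. With TMM, a scaling that centres the ratios over genes, 5 were higher and 1 lower, as Slc16a3 came to 0.58, short of 1.5-fold, where 7.07% and 5.46% of all genes were. Without the cells whose barcode occurred in both libraries the counts were 5 and 1 as well, where 7.36% and 5.23% of all genes were.

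Egln3, the prolyl hydroxylase whose gene is itself a HIF target, differed most. It stood at 8.23 CPM in Control ECs (281 UMIs) and 25.95 CPM in Dach1OE ECs (918 UMIs), which is 1.66 (1.46 to 1.85) as a log2 ratio. All 5 EC subtypes compared had more of it in Dach1OE, with 7.47 and 33.2 CPM in bmECs, 6.64 and 21.2 CPM in mpECs, 9.21 and 20.1 CPM in cycling ECs and 27.6 and 41.9 CPM in rECs, where the interval included 0. In aECs the counts were 1 and 52 UMIs, a log2 ratio of 3.79 (1.25 to 9.12). Its share of the UMIs of the 3 Egln genes went from 6.86% to 18.6%, while Egln1 stood at 70.8 and 72.4 CPM and Egln2 at 40.9 and 40.9 CPM.

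Ddit4 stood at 174 CPM in Control ECs and 374 CPM in Dach1OE ECs, a log2 ratio of 1.108 (1.06 to 1.15). It was higher in bmECs (136 and 308 CPM), mpECs (266 and 475 CPM), cycling ECs (154 and 312 CPM) and aECs (353 and 467 CPM), and in rECs it stood at 269.6 and 279.9 CPM, a log2 ratio of 0.05 (-0.25 to 0.35). Slc2a1 stood at 31.0 and 58.0 CPM, a log2 ratio of 0.90 (0.80 to 1.01). It stood at 32.3 and 75.2 CPM in bmECs and at 53.9 and 46.9 CPM in rECs, where the interval included 0, and whether the ratio of rECs differed from that of other ECs was not tested.

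The other 3 members past 1.5-fold were scarce in ECs. Ankrd37, an ankyrin repeat protein, stood at 4.01 and 10.6 CPM, a log2 ratio of 1.40 (1.12 to 1.70), and was higher in all 5 subtypes. Ndufa4l2 stood at 6.68 and 15.9 CPM, at 1.25 (1.02 to 1.48), and Slc16a3 at 3.78 and 5.68 CPM, at 0.59 (0.26 to 0.92). Transcripts of chondrocytes were found in ECs too: all 14 chondrocyte markers were higher in Dach1OE ECs, none was at 0, and their sum was 1767 and 2956 CPM, or 1.15% and 1.94% of the sum in chondrocytes. The same percentages of the chondrocyte levels come to 3.17 and 7.79 CPM for Ndufa4l2 and 0.858 and 1.91 CPM for Slc16a3, but to 0.0356 and 0.0806 CPM for Egln3, 0.0435 and 0.0658 CPM for Ankrd37, 2.61 and 3.48 CPM for Ddit4 and 1.005 and 1.82 CPM for Slc2a1. The 13 mural markers, of cells in which Ndufa4l2 is high, summed to 1880 and 1175 CPM in ECs. Abcc9 (1128 and 468 CPM) and Kcnj8 (284 and 72.1 CPM) made most of this sum and were lower, as were 2 others, while 9 of the 13 were higher, among them Rgs5 (67.4 and 164.8 CPM), Acta2 (48.7 and 88.3 CPM) and Notch3 (19.9 and 34.4 CPM). Egln3 was highest in blood cells, at 47.05 CPM in the myeloid or lymphoid class in Control and 61.99 CPM in the megakaryocyte lineage in Dach1OE. Transcripts of those classes in ECs were not measured. The part of transcripts of other classes in the results was not tested.

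Pdk1 was the member that was lower in Dach1OE ECs, at 49.3 and 30.2 CPM, a log2 ratio of -0.70 (-0.82 to -0.59). All 5 subtypes had lower levels, with 62.5 and 46.3 CPM in bmECs, 30.7 and 18.7 CPM in cycling ECs and 22.4 and 13.3 CPM in aECs. In mpECs it stood at 21.1 and 19.6 CPM, a log2 ratio of -0.10 (-0.43 to 0.23), and in rECs at 12.5 and 6.71 CPM (10 and 4 UMIs), where the interval included 0 as well. The bmECs, in which Pdk1 was highest of the 5, made up 24.4% of the kept cells in Control and 15.9% in Dach1OE. With equal weights of the subtypes the log2 ratio of Pdk1 was -0.51, short of 1.5-fold. Ndrg1, a stress-response gene that is high in ECs, was just short of it with 285 and 193 CPM, at -0.56 (-0.61 to -0.52), lower in all 5 subtypes. Hif1a stood at 128 and 109 CPM, at -0.23 (-0.30 to -0.17), and was lower in all 5 subtypes. Epas1 stood at 493 and 512 CPM, at 0.05 (0.02 to 0.08), but was lower in 4 of the 5 subtypes, and aECs, in which it is highest, made up 1.32% and 4.20% of the kept cells. Ep300 stood at 101 and 103 CPM.

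The glycolytic enzymes differed by small amounts in ECs and mostly in the same direction. Tpi1 (0.43), Eno1 (0.38), Ldha (0.30), Pgk1 (0.28), Gapdh (0.24), Aldoa (0.21) and Pgam1 (0.18) were above 0 with intervals that excluded it, whereas Pkm (-0.02) and Pfkl (-0.02) had intervals that included it. Pgk1 stood at 132 and 160 CPM, Pgam1 at 142 and 161 CPM and Ldha at 164 and 201 CPM, and the percentages of the chondrocyte level given above come to 10.2 and 19.0 CPM for Pgk1, 9.22 and 16.4 CPM for Pgam1 and 9.93 and 17.2 CPM for Ldha. For Tpi1 they come to 3.58 and 6.78 CPM, for Eno1 to 3.55 and 7.25 CPM, for Gapdh to 6.39 and 12.5 CPM and for Aldoa to 9.18 and 15.4 CPM, and the part of these transcripts was not tested. Of the 17 glycolysis genes with enough UMIs 13 were above 0, with a median of 0.21. Of the 10 other targets 7 were, with a median of 0.33. The median of all genes in ECs, given above, was above 0 too, and the share of all genes above 0 was not computed. The 7 regulators had a median of 0.03. Of 12 genes of the early response to tissue dissociation, Fos (0.64), Nr4a1 (0.97) and Ier2 (0.61) were at least 1.5-fold higher in Dach1OE ECs, with a median of 0.008 for the list. In bmECs 5 of the 12 were, where 5.38% of all genes were, with a median of 0.46 and the highest value for Nr4a1 (1.59), and the part of this response in the members' values was not tested.

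Each library held cells with Y-linked UMIs and cells with Xist, and since each pooled 2 mice the levels could be read in either sex. In ECs, both Dach1OE levels were above both Control levels for 18 of the 34 genes and below them for 3, where 34.3% and 23.8% of all genes did so. Egln3 stood at 6.67 and 8.13 CPM in the Control cells with Y-linked UMIs and with Xist and at 27.2 and 24.5 CPM in those of Dach1OE. Ddit4 stood at 177 and 157 CPM and at 455 and 293 CPM, Slc2a1 at 31.9 and 29.6 CPM and at 60.0 and 53.0 CPM, and Pdk1 at 48.5 and 55.5 CPM and at 31.8 and 26.95 CPM. For these 4 genes, the groups did not overlap. The 3 genes below were Hif1a, Ndrg1 and Pdk1. Cells of either sex in 1 library share the preparation, so these levels are not replicates.

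**Figure D4:**
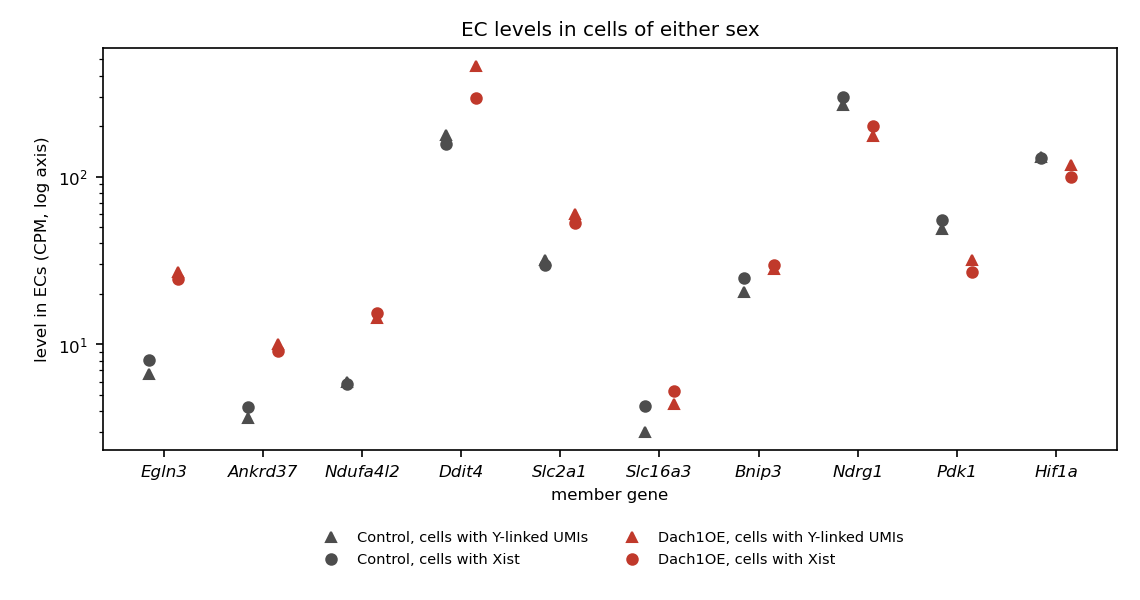
Levels of 10 of the genes in ECs on a log axis in CPM, for the Control (grey) and Dach1OE (red) libraries, in cells with Y-linked UMIs (triangles) and cells with Xist (circles). Both Dach1OE points lie above both Control points for Egln3, Ankrd37, Ndufa4l2, Ddit4, Slc2a1, Slc16a3 and Bnip3, and below them for Ndrg1, Pdk1 and Hif1a.

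In Control, several hypoxia genes stood higher in rECs (316 cells) than in bmECs, with 11 of 31 members at least 1.5-fold higher and 2 at least 1.5-fold lower, where 12.8% of all genes were higher and 28.3% lower. In Dach1OE (202 cells) 4 of 32 were higher, near the 11.7% of all genes, and 3 were lower, where 24.7% of all genes were. Of the 15 glycolysis genes with enough UMIs, 7 were higher and 2 lower in Control and 1 was higher and 3 were lower in Dach1OE, and whether the libraries differed in this was not tested. The rECs held a median of 1908.5 UMIs per cell and bmECs 2877.5 in Control, and 2642 and 2739 in Dach1OE. The median share of mitochondrial UMIs was 10.8% in rECs and 7.88% in bmECs in Control, and 9.74% and 7.90% in Dach1OE, and the part of either in the result was not tested. In Control the log2 ratio of rECs over bmECs was 2.85 (2.02 to 3.62) for Ankrd37, 1.88 (1.17 to 2.53) for Egln3, 1.35 (0.90 to 1.77) for Bnip3, 0.99 (0.78 to 1.19) for Ddit4 and 0.89 (0.74 to 1.03) for Ndrg1. In Dach1OE it was 2.52 (1.94 to 3.06) for Ankrd37 and 1.56 (1.13 to 1.96) for Bnip3, but 0.34 (-0.31 to 0.91) for Egln3 and -0.14 (-0.37 to 0.08) for Ddit4, as the level in bmECs was higher there. Pdk1 was lower in rECs than in bmECs in both libraries, at -2.32 and -2.79, with 10 and 4 UMIs in rECs.

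In mural cells 4 of 31 members were at least 1.5-fold higher in Dach1OE and none lower, where 2.72% and 2.13% of all genes were. Egln3 again differed most, with 6.46 and 15.7 CPM (21 and 96 UMIs), at 1.29 (0.59 to 2.04). Ddit4 stood at 30.1 and 55.3 CPM, at 0.88 (0.55 to 1.22), Ankrd37 at 15.4 and 24.4 CPM, at 0.67 (0.20 to 1.16), and Pdk1 at 8.61 and 13.6 CPM (28 and 83 UMIs), at 0.66 (0.03 to 1.33). All 4 were higher in pericytes and in smooth muscle cells alike, but Pdk1 turned to -0.31 with cells under 10% mitochondrial UMIs and to -0.33 in cells with Xist. EC markers summed to 678 and 765 CPM in mural cells, or 4.94% and 5.45% of their level in ECs. Esam made 345 and 374.7 CPM of these sums, the other 13 markers stood between 3.28 and 44.9 CPM, and the part of this in the results was not tested. Chondrocyte markers summed to 1811 and 2749 CPM, 13 of 14 higher, and 4 genes of the dissociation response were at least 1.5-fold lower, which was not tested either. Epas1 stood at 754 and 734 CPM, Hif1a at 98.1 and 107 CPM, Ep300 at 104 and 101 CPM. Hk2, Pfkfb3, Pfkfb4, Aldoc and Slc16a3 had too few UMIs.

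In bone stromal cells 4 of 35 members were at least 1.5-fold higher in Dach1OE and 3 at least 1.5-fold lower, where 1.22% and 11.4% of all genes were. The median of all genes was -0.21 in this class, and TMM and median-of-ratios scaling both placed the centre of the ratios at -0.20, so that the members are best read against that value. With TMM 5 members were higher and 1 lower, where 3.36% and 5.89% of all genes were. The median of the members was -0.03, and 25 of the 35 were above the median of all genes. Aldoc had too few UMIs.

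Epas1 was the lower member that stayed past 1.5-fold with TMM. It stood at 209 CPM in Control and 91.2 CPM in Dach1OE, at -1.20 (-1.27 to -1.13), and at -0.99 with TMM. The make-up of the class differed too, as dpMSCs, in which Epas1 is high, made up 11.1% of the kept cells in Control and 4.46% in Dach1OE. Markers of mural cells and ECs, the classes in which Epas1 is highest, were lower in Dach1OE bone stromal cells as well. The 13 mural markers summed to 861 and 557 CPM, 9 of them lower, and the 14 EC markers to 272 and 216.5 CPM, 13 of them lower, none at 0, and their part in the result was not tested. Epas1 was below 0 in all 6 subtypes compared, at -0.40 (-0.48 to -0.32) in dpMSCs and -0.07 (-0.30 to 0.17) in OBs, and at -0.37 with equal weights of the subtypes. One of the 6, the osteocyte gate, was small and mixed, with 69 and 87 cells of which 76.8% and 80.5% lay in a cluster of bone stromal cells, and without it Epas1 came to -0.34 with equal weights. Mxi1, a Myc antagonist that is high in dpMSCs (168 and 151 CPM), had -0.60 and Pfkp -0.67, and with equal weights they came to 0.06 and 0.21, the other direction, or to 0.03 and 0.19 without the osteocyte gate.

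The higher members in bone stromal cells were scarce genes. Ankrd37 stood at 1.34 and 3.63 CPM (36 and 98 UMIs), at 1.44 (0.87 to 2.03), Ndufa4l2 at 18.2 and 33.6 CPM, at 0.88 (0.72 to 1.04), Slc16a3 at 2.05 and 3.56 CPM, at 0.79 (0.30 to 1.30), and Egln3 at 2.05 and 3.11 CPM, at 0.60 (0.09 to 1.12). With equal weights of the subtypes Ndufa4l2 came to 0.36 and Slc16a3 to 0.15, and without the osteocyte gate to 0.65 and 0.59. Of the 6 subtypes, Egln3 was higher in 6, Ankrd37 in 5, Slc16a3 in 4 and Ndufa4l2 in 3, and each was lower in the others, among them the osteocyte gate with 2 and 0 UMIs of Ankrd37 and of Slc16a3 and 8 and 1 UMIs of Ndufa4l2. Chondrocyte markers summed to 3555 and 4945 CPM in bone stromal cells, 13 of 14 higher, none at 0, or 2.31% and 3.24% of the level in chondrocytes, and Col11a2 alone made 1507 and 2123 CPM of these sums. The same percentages of the chondrocyte levels come to 1.73 and 3.19 CPM for Slc16a3, most of its level here, and to 6.37 and 13.0 CPM for Ndufa4l2. Without Col11a2 the sums were 1.40% and 1.94% of the chondrocyte level, which comes to 1.04 and 1.91 CPM for Slc16a3 and 3.85 and 7.81 CPM for Ndufa4l2. With all 14 markers, Aldoc would come to 0.791 and 1.04 CPM, above the 0.186 and 0.63 CPM measured, and the part of these transcripts in the results was not tested. Ddit4 stood at 107 and 147 CPM, at 0.45. Hif1a had -0.22, Ep300 -0.36 and Vhl -0.41.

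In chondrocytes no member was 1.5-fold higher or lower, where 0.883% of all genes were higher and 3.49% lower. The median of the 36 was 0.02 and that of all genes -0.01. With TMM scaling 1 member, Ndufa4l2, reached 1.5-fold higher, where 1.12% of all genes did. It had the largest log2 ratio, at 276 and 402 CPM, a log2 ratio of 0.54 (0.51 to 0.57). Egln3 came next, at 3.10 and 4.16 CPM (140 and 245 UMIs), a log2 ratio of 0.42 (0.12 to 0.74). Its ratio was 0.44 in cells with Y-linked UMIs and -0.008 in cells with Xist. Slc16a3 (0.40), Eno1 (0.27) and Gapdh (0.22) were higher too, while Epas1 had -0.36 and Ddit4 -0.34. Hif1a stood at 147 and 153 CPM and Ep300 at 38.5 and 36.1 CPM. In the upper growth plate alone, 2 of 33 members were at least 1.5-fold higher in Dach1OE and none lower, where 0.782% of all genes were higher. They were Slc16a3, at 49.5 and 92.1 CPM or 0.89 (0.70 to 1.09), and Ndufa4l2, at 209 and 387 CPM or 0.89 (0.80 to 0.98). The median of the 33 was 0.19 there and that of all genes -0.02. Of 18 glycolysis genes 16 were above 0, with a median of 0.27. Cells with Y-linked UMIs and cells with Xist numbered 163 and 399 in this zone in Control and 424 and 443 in Dach1OE. Over all chondrocytes, Slc16a3 stood at 93.15 and 62.3 CPM in these cells in Control and at 118 and 79.4 CPM in Dach1OE. Ndufa4l2 stood at 328 and 238 CPM and at 466 and 326 CPM. For both genes the levels overlapped between the libraries, and the part of the sex of the cells was not tested. All 12 genes of the dissociation response were lower in Dach1OE chondrocytes, 8 of them by at least 1.5-fold, with a median of -0.84, and the part of this in the members' values was not tested.

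**Figure D5:**
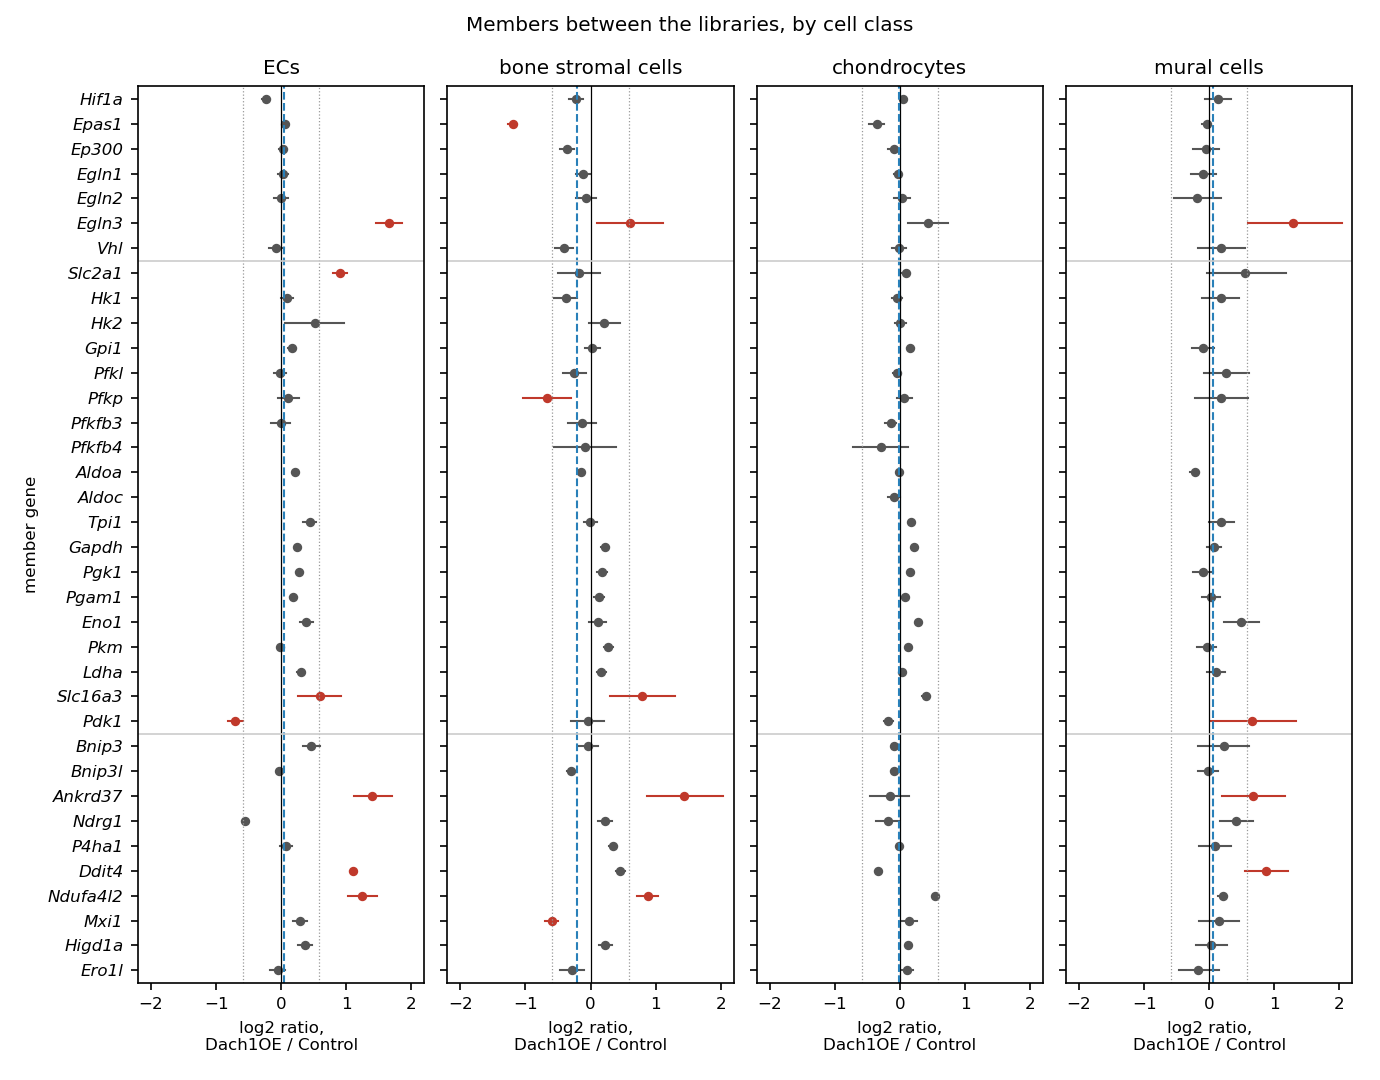
Each row is 1 of the 36 genes and each panel a cell class. Points give log2 of the Dach1OE level divided by the Control level, for genes with at least 100 UMIs, with exact 95% intervals, red where the fold is at least 1.5. Dotted lines mark 1.5-fold either way and the dashed blue line the median of all genes tested. Egln3, Ankrd37 and Ddit4 lie to the right in both ECs and mural cells, Epas1 lies far to the left in bone stromal cells, and no point in chondrocytes is red.

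Among other genes of the pathway, taken from lists chosen for their function, the directions were mixed. Of a list of 22 genes, which holds further HIF targets together with Egfl7 and Eln, 21 had enough UMIs in ECs, and 3 were at least 1.5-fold higher and 2 lower, where 7.29% and 5.35% of all genes were. The 3 include Eln, elastin of the arterial wall, which is best known as an arterial gene and not as a HIF target, at 284 and 764 CPM (1.43). P4ha2, another procollagen hydroxylase, stood at 9.11 and 17.1 CPM (0.91) and Car12, a carbonic anhydrase, at 13.5 and 20.4 CPM (0.59). Hmox1, haem oxygenase, stood at 114 and 53.2 CPM (-1.10), and Angptl4, an inhibitor of lipoprotein lipase, at 129 and 63.5 CPM (-1.02). Angptl4 was at least 1.5-fold lower in the other 3 classes as well, at -1.67 in bone stromal cells, -1.21 in chondrocytes and -1.07 in mural cells. Vegfa stood at 46.7 and 62.5 CPM in ECs and 113 and 88.6 CPM in bone stromal cells, short of 1.5-fold in either.

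Of 11 further genes of the HIF system, Cited2, which competes with HIF for p300, was at least 1.5-fold lower in ECs (-0.64), and Hif3a was so in bone stromal cells (-0.73). In mural cells Adm, the vessel-dilating peptide adrenomedullin, was higher (1.31) and so was Gbe1, glycogen branching enzyme (0.68). Slc2a3, a further glucose transporter, was lower in bone stromal cells (-0.65), and in chondrocytes Eln, from the same list, was higher (0.63). Of 15 further glycolysis genes, Slc16a1, a lactate transporter, was lower in ECs (-0.70), and Ldhb in ECs (-0.68). Pdk4, a relative of Pdk1, was lower in bone stromal cells (-0.59), chondrocytes (-0.65) and mural cells (-1.02). The levels in cells with Y-linked UMIs and cells with Xist overlapped between the libraries for Hif3a in bone stromal cells and Pdk4 in chondrocytes. In ECs they did not overlap for Cited2, Slc16a1 and Ldhb, where 34.3% of all genes were above and 23.8% below without overlap. No such share was computed for the other classes. In bone stromal cells 13 of 35 members were above and 13 below without overlap. None of the 14 genes of pyruvate entry and the citric acid cycle and none of the 7 genes of the pentose phosphate pathway was 1.5-fold higher or lower in any of the 4 classes, and their medians lay between -0.34 and 0.21.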

How the data were processed

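Per the labels and file headers, the authors sequenced a Control and a Dach1OE whole-transcriptome library on the Illumina NextSeq 500, and the deposited tables of counts hold UMIs per cell and gene from the BD Rhapsody WTA Analysis Pipeline 1.11 (GRCm38, GENCODE vM19, introns counted). The methods state another version of that pipeline. UMIs after the pipeline's error correction were used. Cells with 500 to 6000 genes and under 25% mitochondrial UMIs were kept. A marker counted in a cell when its share of the cell's UMIs exceeded its share of all UMIs kept in that library. A cell was given a class when at least 3 markers of that class counted, with a margin of 2 over the next class. A subtype needed at least 2 such markers. Levels rest on UMIs summed over the cells of a class in each library. Levels carry exact Poisson 95% intervals, and ratios and shares exact Clopper-Pearson 95% intervals, for ratios on the split of the 2 counts. No group had a replicate, so no test was made.

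Genes with at least 100 UMIs entered counts and medians. The UMIs were taken over both libraries where these were compared. They were taken within 1 library for a class over the other cells and for a pair of subtypes. The threshold between libraries was 1.5-fold. Values were given for members past it with an interval excluding 0, and for Hif1a, Epas1 and Ep300. They were also given for most members at least 2-fold above the other cells in chondrocytes, and for some of those in other classes or subtypes. The other members are covered by counts and ranges. Further members are named for context, chosen after their values were seen. Members and lists were chosen with earlier results of these data known. Gene positions are from GENCODE vM21 and promoters from RefSeq (GRCm38.p6). Python 3.11.15, numpy 2.4.6, scipy 1.17.1, scanpy 1.11.5 (clusters, doublets), R 4.3.3 and edgeR 4.0.16 (TMM factors only) were used, and the calculation was tested on simulated data. There were 18 alternatives, of which 3 (shared barcodes left out, cells under 2000 UMIs left out, and, for bone stromal cells, equal weights of the subtypes without the osteocyte gate) were chosen after seeing the data. Some genes of the further lists are not reported here.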

Additional observations from a re-analysis of the deposited data

Results flagged for a closer look

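Pdk1 was lower in Dach1OE ECs, with a log2 ratio of -0.70, and higher in Dach1OE mural cells, with 0.66, so that the direction differed between the cell classes. In mural cells it had -0.31 under 10% mitochondrial UMIs and -0.33 in cells with Xist, so that its direction there depended on the cells used. Nr4a1, an early response gene, had 0.97 in ECs and -1.49 in mural cells. Ier2, another early response gene, had 0.61 in ECs and -0.78 in chondrocytes. None of these 3 differences was tested, since each group had 1 library.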

How the results depend on the processing

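No paired analysis was possible because each group had 1 library and no test was made. In ECs the median of the members lay between 0.12 and 0.19 over the 17 alternatives, and 4 to 7 members were higher. The number lower in ECs, 1 as reported, was 2 with the mean of per-cell CPM and in cells with Y-linked UMIs, and 0 with equal weights of the subtypes and at 2-fold. In bone stromal cells the median of the members was 0.12 with equal weights, 0.16 with equal weights without the osteocyte gate and 0.17 with either TMM or median-of-ratios scaling. The number higher there was 2 under 10% mitochondrial UMIs, and 1 with a minimum of 500 UMIs, in cells with Y-linked UMIs, in cells with Xist and at 2-fold. The number lower there was 0 with equal weights, with or without that gate, and 1 with either scaling, with clusters, in cells with Xist and at 2-fold. With equal weights Pfkp came to 0.21 and Mxi1 to 0.062, and without that gate to 0.19 and 0.034, the reverse direction. In chondrocytes 1 member was higher with the mean of per-cell CPM and with either scaling, and 1 was lower with equal weights. Their median over the other cells was 0.88 in both Control and Dach1OE with the mean of per-cell CPM. In mural cells the number higher was 2 under 10% mitochondrial UMIs, with 1000 to 6000 genes and in cells of either sex, 1 at 2-fold and in cells with at least 2000 UMIs, and 0 with a minimum of 500 UMIs. The number lower was 2 with no minimum of UMIs. Pdk1 in mural cells reversed to -0.31 under 10% mitochondrial UMIs and to -0.33 in cells with Xist. Apart from the threshold and the minimum of UMIs, which set these counts by construction, the cause was not tested. Low counts limit Egln3, Ankrd37 and Slc16a3 in mural and bone stromal cells, Pdk1 in mural cells, and Ankrd37 and Slc16a3 in ECs. They also limit all values in rECs and hypertrophic chondrocytes.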
